A study of Mus musculus with 6 samples.

Results

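The S100 genes encode small calcium-binding proteins, and the 7 members described here were the rows S100a8, S100a9, S100a4, S100a6, S100a10, S100a11 and S100a13, taken by symbol from 46333 gene rows in the deposited expression tables. RNA from mouse bone marrow cells was sequenced in 6 libraries. The control group (3 libraries) was labelled negative control. The CUMS group (3 libraries) came from mice put through chronic unpredictable mild stress, a schedule of changing mild stressors used as a rodent model of depression, for 4 weeks. Strain, sex, age and whether a library held 1 animal or several were not given in the sources used here, and neither group was labelled as carrying an allele or a drug. The series title names vasopressin and marrow myelopoiesis, so the comparison asks whether transcripts carried by myeloid cells differed after stress.

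S100 proteins carry a pair of EF-hand calcium-binding loops and mostly work as dimers that change shape when calcium binds and then grip a partner protein. S100A8 and S100A9 pair to form calprotectin, which fills the cytosol of neutrophils, withholds zinc and manganese from microbes, and acts as an alarmin on Toll-like receptor 4 and the receptor RAGE once released. The other members are more widely expressed: S100A4 binds non-muscle myosin, S100A6 binds the ubiquitin ligase adaptor encoded by Cacybp, S100A10 holds annexin A2 at the membrane and lacks calcium binding, S100A11 binds annexin A1, and S100A13 takes part in the export of signal-less cytokines.

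All 7 genes lie on chromosome 3 (RefSeq, GRCm38). S100a13 (90514233 to 90524581), S100a4 (90603770 to 90606045), S100a6 (90612894 to 90614414), S100a8 (90669071 to 90670034) and S100a9 (90692630 to 90695721) sit within 181489 bases, and S100a9 alone of the 7 is on the minus strand. S100a11 (93520496 to 93526288) and S100a10 (93555117 to 93564645) lie 2824774 bases further on. The first 98 bases of the S100a13 gene overlap those of S100a1 on the opposite strand, and the use of strand in counting was not stated, so reads there cannot be assigned to either gene with certainty.

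Promoter windows were found for 6 of the 7 members (RefSeq, GRCm38.p6). The 250 bases before the annotated start are shown for the calprotectin pair and for S100a11. The pair ordered the control libraries alike and S100a11 ordered them differently. In the CUMS libraries the order differed within the pair too. Capitals mark matches, searched on both strands, to the letters TATAAA of the box that binds TBP, to the C/EBP core TTNNGNAA, to the AP-1 site TGANTCA and to the GC-rich Sp1 box GGGCGG. No match shown overlaps another.
S100a8, chr3:90668821-90669070, plus strand: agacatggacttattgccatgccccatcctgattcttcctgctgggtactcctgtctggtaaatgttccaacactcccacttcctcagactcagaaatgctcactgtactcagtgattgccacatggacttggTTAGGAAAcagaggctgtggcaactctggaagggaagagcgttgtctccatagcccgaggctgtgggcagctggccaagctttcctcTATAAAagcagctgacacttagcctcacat
S100a9, chr3:90695722-90695971, minus strand: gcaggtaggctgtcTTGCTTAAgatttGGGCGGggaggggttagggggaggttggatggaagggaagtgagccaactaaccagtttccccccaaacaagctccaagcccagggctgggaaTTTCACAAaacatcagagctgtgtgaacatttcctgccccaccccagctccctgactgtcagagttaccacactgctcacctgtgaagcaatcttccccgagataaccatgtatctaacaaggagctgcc
S100a11, chr3:93520246-93520495, plus strand: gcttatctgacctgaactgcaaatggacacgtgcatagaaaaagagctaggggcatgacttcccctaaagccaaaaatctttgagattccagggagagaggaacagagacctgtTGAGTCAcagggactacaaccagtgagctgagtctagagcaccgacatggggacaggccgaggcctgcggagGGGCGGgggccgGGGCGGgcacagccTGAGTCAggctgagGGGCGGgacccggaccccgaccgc

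Positions are those of the first letter of a match, counted back from the annotated start. The S100a8 window held TATAAA at −30 and 1 C/EBP core match at −117. In the GENCODE M21 annotation an S100a8 transcript starts at 90668978, inside this window, so the TATAAA lies past that start. The S100a9 window held C/EBP core matches at −236 and −130 and an Sp1 box at −223, and its TATAAA begins at base 1 after the RefSeq start. The S100a11 window held neither TATAAA nor the C/EBP core, but AP-1 matches at −136 and −38 and Sp1 boxes at −64, −52 and −24. Among 32851 windows of the same length, 12.4% held TATAAA, 36.8% the C/EBP core, 6.75% the AP-1 letters and 32.7% the Sp1 box. S100a4 held TATAAA at −31, and the window of S100a6 held none of the 4 motifs. Nor did that of S100a13, but it runs from 90514185 to 90514434 and so lies mostly inside the gene, past the gene start given above. These are matches of letters, and no binding was measured.

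The values were taken to be FPKM (fragments scaled by transcript length and by library depth), a unit inferred from the numbers. Levels of different genes are compared on this per-length scale within a library, and the summed FPKM of the libraries differed, from 561552 to 658588. Both calprotectin transcripts were among the most abundant of the marrow: S100a8 ranked 5 and S100a9 ranked 6 among all genes in each of the 6 libraries. S100a8 was above S100a9 in 6 of 6 libraries, with a ratio between 1.14 and 1.31. S100a9 in turn was 18.2 to 27.1 times as high as S100a11, the third of the 7. S100a11 was 1.78 to 2.53 times S100a6, and S100a6 was 2.77 to 3.63 times S100a4. S100a4 and S100a10 could not be ranked: S100a4 was the higher in 4 of 6 libraries, with ratios from 0.829 to 1.158. S100a13 was the lowest member, with S100a10 at 3.43 to 4.76 times its level. As a share of all FPKM in a library, the 7 members reached between 6.06% and 7.38% among controls and between 5.69% and 6.38% among CUMS libraries. For the 5 members outside the calprotectin pair the share ran from 0.231% to 0.254% and from 0.189% to 0.206%. These ranges do not overlap, but without S100a11 they did: the other 4 made up 0.097% to 0.119% among controls and 0.0851% to 0.098% among CUMS libraries.

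**Figure D1:**
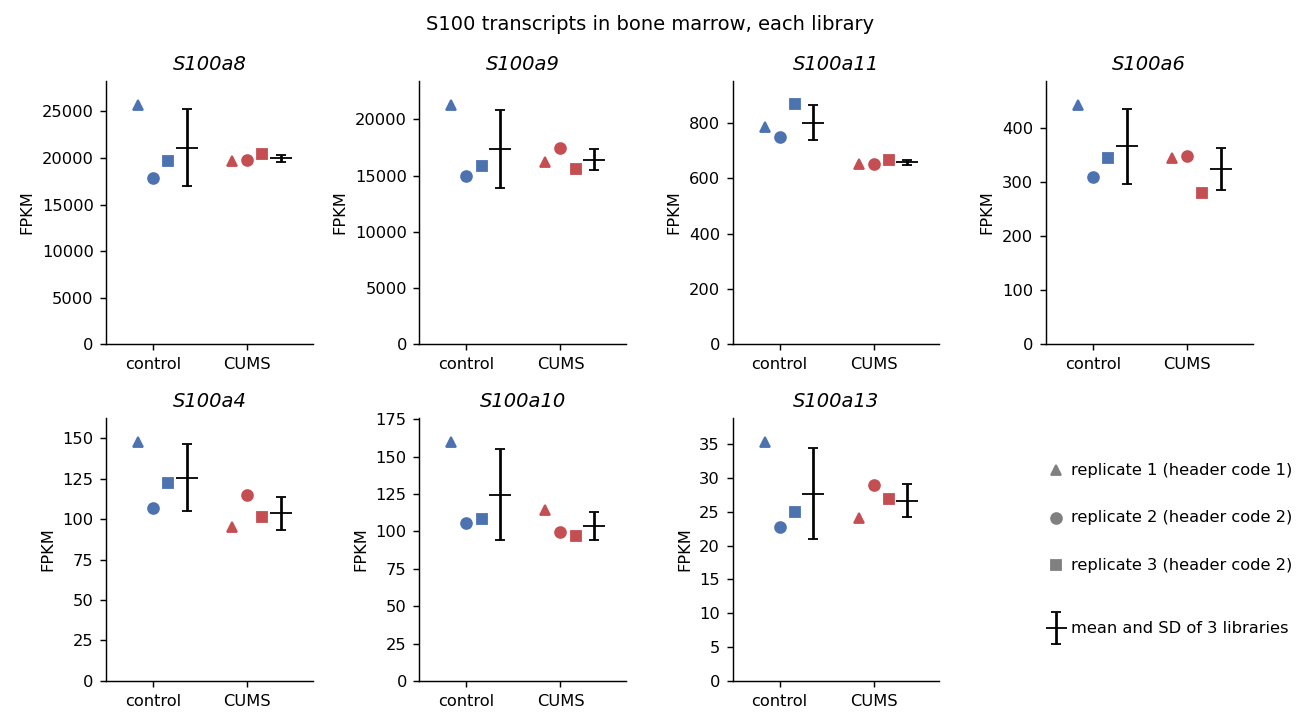
FPKM of each S100 gene in each library (linear axes from 0, 1 panel per gene), with the mean and SD of 3 libraries per group and the replicate number as the marker shape. Control replicate 1 is the highest library for 6 of the 7 genes, and for S100a11 the 3 CUMS libraries (653 to 668) lie below the 3 control libraries (749.9 to 871).

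None of the 7 members passed the test between CUMS and control, against 1.07% of all 12302 tested genes (132 genes; limma on log2(FPKM + 1), Benjamini-Hochberg adjusted p under 0.05). An unadjusted p under 0.05 was reached by S100a11 alone of the 7, and by 1898 of all tested genes. The log2 change was below 0 for 7 of 7 members, as it was for 50.3% of all tested genes, and the median of the members was −0.16 beside −0.0017 over all tested genes. That direction held for 4 of the 7 in each alternative setting run. S100a8, S100a9 and S100a13 turned towards higher without control replicate 1. In this bulk RNA a lower value can mean fewer cells of a type or less RNA per cell, which cannot be told apart. The labels do not say that libraries came from separate animals, so p-values measure the spread between these samples, and an exact permutation test of 3 against 3 libraries cannot go below 0.1.

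S100a8, the smaller chain of calprotectin, was at 25729, 17803 and 19707 FPKM in control replicates 1, 2 and 3 and at 19685, 19776 and 20388 in the CUMS libraries. The CUMS libraries thus lay close together inside the control range, and control replicate 1 stood above the other 5 libraries. The means were 21079.7 ± 4137 and 19949 ± 382 FPKM (SD, n = 3 libraries each), a log2 change of −0.06 with a 95% interval from −0.56 to 0.44 (limma adjusted p = 0.928). S100a9, its partner chain, was at 21305, 14930.1 and 15889 FPKM in controls and at 16245, 17419 and 15572 in CUMS. Its groups overlapped as well, again with control replicate 1 on top. The log2 change was −0.07 with an interval from −0.56 to 0.42 (limma adjusted p = 0.922). The ratio of S100a8 to S100a9 was 1.21 ± 0.0244 in controls and 1.22 ± 0.0872 in CUMS. In CUMS the pair differed in order: replicate 3 was the highest CUMS library for S100a8 and the lowest for S100a9.

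S100a11, a partner of annexin A1, was at 786, 749.9 and 871 FPKM in control replicates 1, 2 and 3 and at 653, 654 and 668 in the CUMS libraries. The 3 CUMS values were nearly equal and all lay below the lowest control. The means were 802 ± 62.2 and 658 ± 8.41 FPKM, a ratio of 0.820. The log2 change was −0.28 (SE 0.11, 95% interval −0.53 to −0.04), and the limma adjusted p was 0.264 over all genes (0.0297 before adjustment). Non-overlapping groups were found for 1 of 7 members and for 22.1% of all tested genes (12.1% in the lower direction), so this share was near that of all tested genes. The file headers also carry a code of unstated meaning, which is 1 in control and CUMS replicate 1 and 2 in replicates 2 and 3. With that code as a term in the fit S100a11 fell (limma adjusted p = 0.0378), as 1 of 7 members against 13.4% of all genes called. In the 4 libraries of code 2 alone it also fell, by 0.29 on the log2 scale (limma adjusted p = 0.0393, 1 of 7 members against 17.7% of all genes). With the replicate number as a block it did not pass (limma adjusted p = 0.0628), nor did another member, while 7.8% of all genes were called.

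S100a4, S100a6 and S100a10 had lower means in CUMS with overlapping groups. S100a4, which binds non-muscle myosin, was at 148, 107 and 122 FPKM in controls and 94.99, 115 and 101.1 in CUMS. Its 2 lowest values were CUMS libraries, but CUMS replicate 2 lay above control replicate 2. The log2 change was −0.27 (SE 0.14, interval −0.59 to 0.05, limma adjusted p = 0.412). S100a10, the partner of annexin A2, was at 159.7, 106 and 108 FPKM in controls and 115, 99.3 and 97.0 in CUMS, where CUMS replicate 1 lay above 2 of the 3 controls. The log2 change was −0.24 (SE 0.17, interval −0.63 to 0.15, limma adjusted p = 0.557). S100a6, also called calcyclin, was at 442, 309 and 344 FPKM in controls and 345, 347 and 279.6 in CUMS. Here 2 of the CUMS libraries lay above 2 of the controls, and the log2 change was −0.16 (SE 0.16, interval −0.53 to 0.20, limma adjusted p = 0.685).

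S100a13, which takes part in the release of FGF1 and interleukin 1 alpha, was the least abundant member. It was at 35.3, 22.8 and 25.0 FPKM in controls and at 24.0, 28.9 and 26.9 in CUMS, so the CUMS libraries fell between the control extremes. The log2 change was −0.03 (SE 0.16, interval −0.42 to 0.35, limma adjusted p = 0.951). In the libraries of code 2 it was 0.22 towards higher (limma adjusted p = 0.0919). S100a1, whose gene overlaps S100a13 on the other strand, was at 19.6 ± 3.19 and 20.9 ± 1.24 FPKM (log2 change 0.09, limma adjusted p = 0.792).

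**Figure D2:**
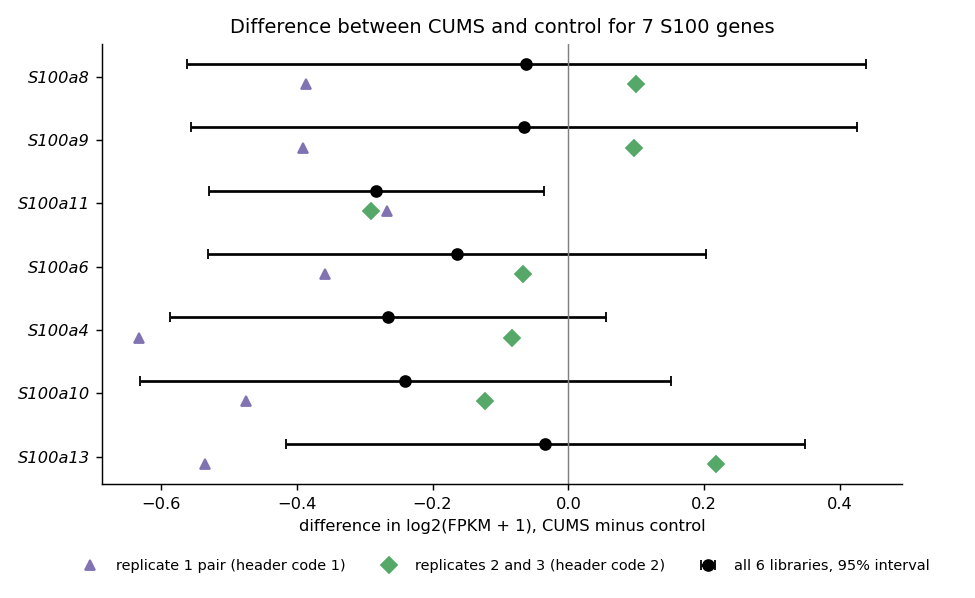
Difference in log2(FPKM + 1), CUMS minus control, for each S100 gene: circles with bars give the limma estimate from 6 libraries with its 95% interval, triangles the replicate 1 pair (header code 1) and diamonds replicates 2 and 3 (header code 2). The interval excludes 0 for S100a11 alone, whose triangle and diamond nearly coincide (−0.27 and −0.29), whereas S100a8, S100a9 and S100a13 have them on opposite sides of 0.

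For 6 of the 7 genes the difference was of unlike size in replicate 1 and in replicates 2 and 3. In the pair of replicate 1 libraries, S100a8 differed by −0.39 and S100a9 by −0.39 on the log2 scale, while in replicates 2 and 3 the differences were 0.10 and 0.10. The same comparison gave −0.54 and 0.22 for S100a13, −0.63 and −0.08 for S100a4, −0.48 and −0.12 for S100a10, and −0.36 and −0.07 for S100a6. S100a11 was the member with like values in both (−0.27 and −0.29). Whether these differences between replicate numbers exceed chance was not tested, as header code 1 had 1 library per group.

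Control replicate 1 stood apart in the values. It was above the mean of control replicates 2 and 3 by 0.37 to 0.57 on the log2 scale for the 6 members other than S100a11, and S100a11 differed by −0.04. CUMS replicate 1, which carries the same header code, differed from CUMS replicates 2 and 3 by −0.21 to 0.22 for the 7 members. The S100 transcripts are short, 498 to 783 bases for the longest annotated form of each member. Tested genes with a longest transcript under 1000 bases (1423 genes) were higher in control replicate 1 by a median of 0.22, and in CUMS replicate 1 by 0.05. The medians were 0.12 and 0.07 for the 6437 genes of 1000 to 4000 bases. For the 3829 genes over 4000 bases the medians were −0.24 and −0.21. The part of transcript length in the S100 values was not tested.

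**Figure D3:**
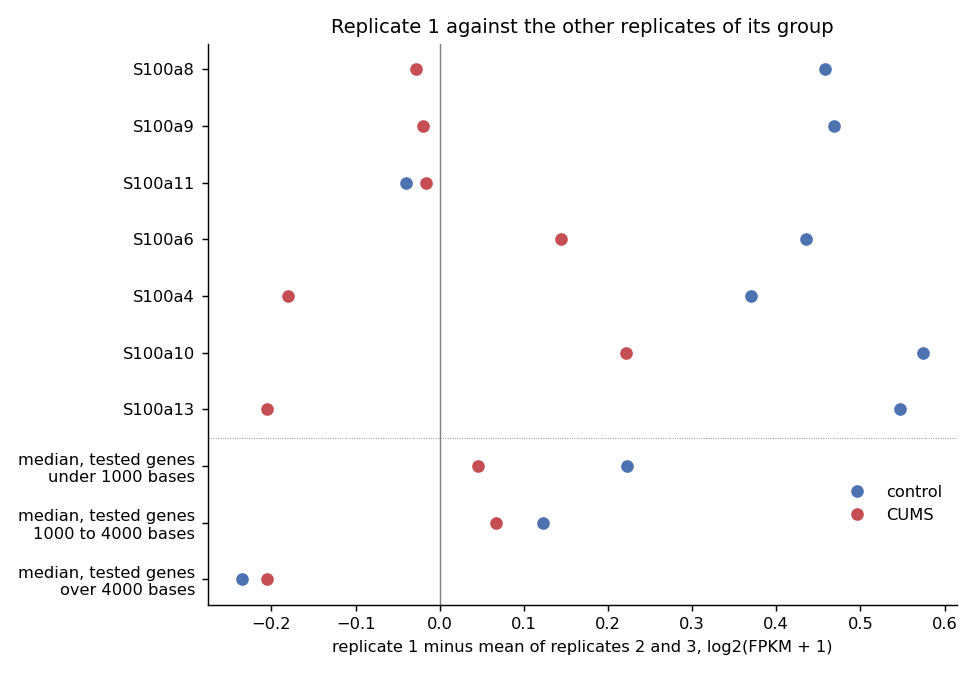
Replicate 1 minus the mean of replicates 2 and 3 on log2(FPKM + 1), within the control group and within the CUMS group, for each S100 gene and as medians of all tested genes by the length of the longest transcript. The control points of 6 S100 genes lie between 0.37 and 0.57, to the right of the median of genes under 1000 bases (0.22), while the CUMS points lie between −0.21 and 0.22.

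Markers of the cells that carry these transcripts were measured in the same libraries. Markers of neutrophils, monocytes, eosinophils, B cells, erythroid cells and megakaryocytes were above 0 in each library. The 8 markers of intermediate neutrophils (Ltf, Camp, Ngp and others) had sums from 16804 to 21892 FPKM among controls. Among CUMS libraries these sums ran from 16410 to 19415. Control replicate 1 had the highest sum, as it had for the monocyte, B cell, T and NK cell and megakaryocyte markers. It was also the highest library for S100a8. The 8 mature neutrophil markers had sums from 3023 to 3370 FPKM among controls and from 2664 to 2755 among CUMS libraries, lower without overlap. Retnlg alone averaged 1953 and 1727 FPKM of that sum. Of the 8 genes, Retnlg, Mmp9 and G0s2 were lower in CUMS without overlap, beside 12.1% of all tested genes, and Il1b was higher without overlap (52.1 ± 3.63 and 63.1 ± 3.50 FPKM, log2 change 0.27, limma adjusted p = 0.226). The 5 precursor markers (Mpo, Elane, Prtn3, Ctsg and Ms4a3) summed to 1610.2 to 2255 and 1939 to 2637 FPKM. None of these 21 genes passed the test, although with the replicate block 3 mature neutrophil genes fell (Mmp9, G0s2 and Msrb1) and 1 precursor gene rose (Ctsg), beside 7.8% of all tested genes called. With the header code as a term 13.4% of all tested genes were called. There Il1b (limma adjusted p = 0.0228), 3 precursor genes (Mpo, Ctsg and Ms4a3) and 1 intermediate gene (Chil3) rose. The mature genes Mmp9, G0s2 and Msrb1 fell in that fit too. With group as the only term, 1.07% of all tested genes were called. In that fit Csf1r, Cx3cr1 and Fcgr1 fell, of 9 monocyte and macrophage markers. Of these 9, 5 were lower in CUMS without overlap, beside 12.1% of all tested genes, and 0 were higher without overlap. The list had sums from 967 to 1208 FPKM and from 967 to 1051, of which Ly6c2 alone averaged 708 and 727 FPKM. Of 8 eosinophil, basophil and mast cell markers 4 rose (Epx, Prg2, Ear1 and Ear6), with sums of 795 to 1085 and 1642 to 1680 FPKM. Haemoglobin transcripts, which come from erythroid cells, made up 28.8% to 29.2% of all FPKM in control libraries and 31.7% to 35.2% in CUMS libraries, although none of 7 erythroid markers passed. The 6 B cell markers had sums from 481 to 571 and from 404 to 455 FPKM, also without a call. Those sums were lower in CUMS without overlap, as for the mature neutrophil markers and for S100a11. Of 8 stromal, endothelial and bone markers Col1a2 rose, and the sums were 86.4 to 88.6 and 107 to 115 FPKM. No listed marker of any cell type was at 0 in any library, and the part of cell composition in the S100 values was not tested.

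The rest of the S100 family was scarce. Of 10 other listed S100 genes 1 had enough signal to test, S100a1, which did not pass. S100pbp, which encodes a protein that binds S100P and is no S100 gene itself, did not pass either. S100a16 was at 0.598 ± 0.129 and 0.648 ± 0.163 FPKM, and S100a3, S100a7a and S100b stayed under 1 FPKM in every library. S100a5, S100a7l2, S100g and S100z were listed at 0 in the 6 libraries, and S100a14 in 5 of them. S100a2, which was added after its values were seen, was listed at 0 in CUMS replicates 2 and 3 and was at most 0.473 FPKM elsewhere.

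Receptors through which released calprotectin acts gave no call among 9 tested genes (median log2 change −0.06, 6 of 9 below 0). Cd14, the co-receptor of Toll-like receptor 4, was at 12.3, 8.24 and 8.88 FPKM in controls and 18.5, 14.4 and 15.0 in CUMS. Each CUMS library was above each control, and the log2 change was 0.66 (SE 0.16, limma adjusted p = 0.109). Cd14 rose with the replicate block (limma adjusted p = 0.00704, 7.8% of all genes called) and with the header code as a term (0.00185, 13.4%). It also rose in the libraries of code 2 (0.00326, 17.7%) and without control replicate 1 (0.035, 2.13%). Ly96, which encodes the lipid-binding partner MD-2 of the same receptor, lay lower in each CUMS library, at 3.50 ± 0.635 and 2.43 ± 0.292 FPKM (log2 change −0.38, limma adjusted p = 0.257). Of the 9 genes, 1 was higher without overlap (Cd14) and 1 lower (Ly96), beside 22.1% of all tested genes in either direction. Tlr4 itself was at 3.36 ± 0.269 and 3.05 ± 0.467 FPKM (log2 change −0.11, limma adjusted p = 0.735). Myd88, the adaptor behind the receptor, had a log2 change of −0.21 (limma adjusted p = 0.423) and fell in the libraries of code 2 (0.0402), and Ager, which encodes RAGE, one of −0.06 with a wide interval from −0.78 to 0.66. Bsg, encoding basigin, another receptor of S100A9, was the most abundant of the list at 262 ± 45.9 and 291 ± 34.96 FPKM (log2 change 0.16, limma adjusted p = 0.670).

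Intracellular partners gave no call among 12 tested of 16 listed genes (median log2 change −0.03, 8 of 12 below 0). Anxa1, the partner of S100A11, was at 640.0 ± 106 and 663 ± 20.4 FPKM (log2 change 0.06, limma adjusted p = 0.881). Anxa2, the partner of S100A10, was at 251 ± 42.3 and 236 ± 20.9 FPKM (log2 change −0.07, limma adjusted p = 0.858). Anxa5, Cacybp and Anxa11 had the smallest p of the list, with log2 changes of −0.21, 0.21 and −0.14 (limma adjusted p = 0.452, 0.467 and 0.528). Cacybp, the partner of S100A6, passed in the libraries of code 2 (limma adjusted p = 0.0439), where 17.7% of all tested genes were called. Myh9, the heavy chain of the myosin that S100A4 binds, had a log2 change of −0.07 (limma adjusted p = 0.920). Fgf1, Il1a, Plat and Plg did not reach the minimum level for a test.

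Transcription factors known to act on S100a8 and S100a9 in myeloid cells gave no call among 7 tested genes, with a median log2 change of −0.26 and 6 of 7 below 0. Gfi1, a repressor that guides granulocyte maturation, was higher in each CUMS library, at 11.9 ± 0.9496 and 14.5 ± 0.334 FPKM (log2 change 0.26, limma adjusted p = 0.250). Cebpe, a driver of late granulocyte maturation, was lower in each CUMS library, at 101.5 ± 10.98 and 84.3 ± 5.10 FPKM (log2 change −0.26, limma adjusted p = 0.309). Of the 7 factors, 1 was higher without overlap (Gfi1) and 1 lower (Cebpe), beside 22.1% of all tested genes in either direction. Spi1, which encodes PU.1, had a log2 change of −0.31 (limma adjusted p = 0.319), and it fell with the header code as a term (0.0389) and in the libraries of code 2 (0.00775). Cebpd had the lowest estimate of the list, −0.47 (SE 0.24, limma adjusted p = 0.397). It was at 60.2, 39.7 and 39.9 FPKM in controls and 45.9, 28.9 and 26.0 in CUMS, with replicate 1 the highest of each group. Cebpd fell with the replicate block (limma adjusted p = 0.0171, 7.8% of all tested genes called) and with the header code as a term (0.00549, 13.4%). It also fell in the libraries of code 2 (limma adjusted p = 0.00612). In the libraries of code 2, Cebpa and Cebpb fell too (limma adjusted p = 0.0154 and 0.0311), so 4 of 7 factors were called there, against 17.7% of all tested genes. In the same libraries S100a8 and S100a9 had log2 differences of 0.10 each.

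**Figure D4:**
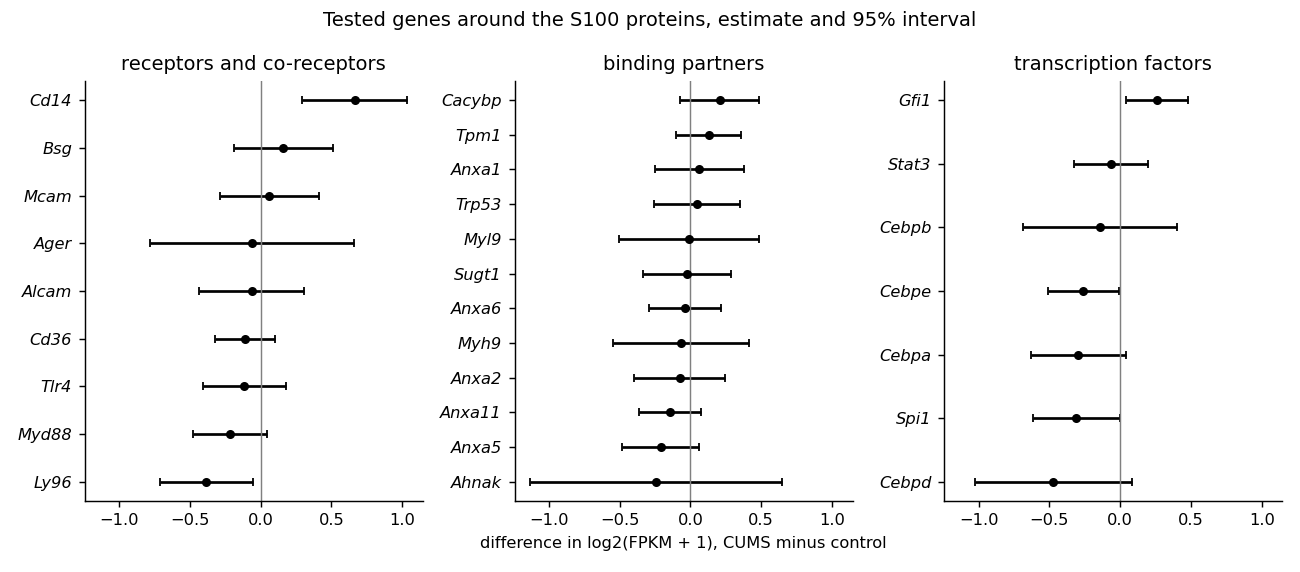
Difference in log2(FPKM + 1), CUMS minus control, with the 95% limma interval for 9 receptors and co-receptors, 12 binding partners and 7 transcription factors. Cd14 has the largest estimate (0.66) and Cebpd the lowest (−0.47), and none passed after adjustment over all tested genes.

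Likeness to other genes was measured as Pearson's r of log2(FPKM + 1) over the 6 libraries, among 5619 other tested genes with a mean of at least 10 FPKM, and is given as a description. With 6 points, many genes come close to each member by this measure: 33 genes had r of at least 0.95 with S100a8, 30 with S100a9, 125 with S100a10 and 5 with S100a11. The nearest to S100a8 were Mrps14, encoding a mitochondrial ribosomal protein (r = 0.987), and H1f0, encoding a linker histone (0.984). Those nearest to S100a9 were Gmfg, an actin regulator of blood cells (0.995), and Dctpp1, a nucleotide pyrophosphatase (0.994). S100a10 lay nearest to Mthfd2, a mitochondrial folate enzyme (0.999), and Med11, a Mediator subunit (0.998). For S100a11 they were Tspyl1 (0.971) and Pitpna, a phosphatidylinositol transfer protein (0.959). S100a4 lay nearest to Ndufs6 (0.987) and Mthfsl (0.983), S100a6 to Wdr83 (0.978) and Arpc5 (0.977), and S100a13 to Apip (0.993) and Fgfr1op2 (0.990). The points are the same 6 libraries for every gene, and a high r does not mean the same order of libraries. For S100a8, Mrps14 and H1f0, control replicate 1 was the highest and control replicate 2 the lowest. The remaining libraries were ordered differently among these genes.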

How the data were processed

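RNA of 6 bone marrow libraries was extracted with TRIzol, prepared from 1 µg with a TruSeq kit and sequenced in paired reads of 151 bp, per the labels' protocols. The submitters' processing notes name the mm10 build, HISAT2 2.1, DESeq2 2.11.40.6, featureCounts 1.6.4, bcl2fastq 2.19 and cutadapt 1.16.5 without their roles. The deposited values are FPKM; the unit was inferred from the numbers, as headers and labels are silent on it. Counts were not recovered: between libraries, no 1% step of the ratio of low values held more than 1.04% of genes, so depth in reads is unknown and no counting interval is given. Summed FPKM was 561552 to 658588 per library over genes, and 21055 to 22830 genes were above 0.

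Genes that reached 1 FPKM in 3 or more libraries (12302, with all 7 members) were fitted by limma 3.58.1 (R 4.3.3) with trend on log2(FPKM + 1), group as the only term, Benjamini-Hochberg over all tested genes, threshold 0.05. The fit was tested on simulated data. Tables and plots used matplotlib 3.10.9, pandas 2.3.3 and numpy 2.4.6 under Python 3.11.15. Transcript lengths came from GENCODE M21. The 7 members and the 15 gene lists were chosen with earlier results of these data known. Named were the members, all listed genes that passed, the 3 of smallest p in each pathway list, and the 2 nearest patterns per member. Other listed genes were named for their results: a pass in an alternative fit, groups that did not overlap, a high level or an extreme estimate. The rest are listed genes whose role bears on a member, or examples of a family or marker list.

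Replicate numbers come from the titles. Across genes, same-numbered libraries deviated from their group means with correlations of 0.689 (replicate 1), 0.452 and 0.363, so a fit with the replicate block was run. Replicates 2 and 3 correlated by 0.459 and 0.362 when crossed. Alternatives were the pseudocount, the filter, scaling, the trend, the block, the header code and leaving out each library.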

Additional observations from a re-analysis of the deposited data

How the results depend on the processing

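The 7 log2 changes were recomputed under 16 alternatives each (112 values): 102 were counted as keeping direction and side of the threshold, 8 reversed and 2 newly passed. Dropping the filter or the trend, or adding the block or the header code, leaves the estimate as it was. The direction could not change in those settings. Under quantile normalization S100a8 and S100a9 kept fixed ranks, so their changes were 0 apart from rounding and had no direction. The reversals were all in genes whose change was near 0: in the libraries of header code 2, S100a8 (0.10), S100a9 (0.10) and S100a13 (0.22). Scaled without haemoglobin, S100a8 and S100a9, S100a13 was at 0.0040. Without single libraries the values ran from −0.17 to 0.091 for S100a8, −0.17 to 0.090 for S100a9 and −0.16 to 0.15 for S100a13; all were above 0 without control replicate 1, and S100a13 (0.035) also without CUMS replicate 1. The 2 that passed were S100a11 with the header code as a term and in code 2 alone, 1 member called in each. Leaving out single libraries called 0 members, with adjusted p for S100a11 from 0.137 to 0.657. The replicate block called no member.

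Over all genes 132 were called, 43 without the filter, 199 with quantile normalization, 959 with the replicate block, 1645 with the header code as a term, 2173 in code 2 alone, and 17 to 262 without a single library, each of the 6 moving the count by over 1.5 times. Tested around the members were 9 receptors, 12 partners, 7 factors and 2 genes of the family list. Of these, 0 were called in the main fit (1.07% of all tested genes) and 2 with the replicate block (Cd14 and Cebpd, 7.8%). With the header code as a term 3 were called (13.4% of all tested genes), and 7 in code 2 alone (17.7%). Without a single library 0 to 1 were called. The cause of these shifts was not tested. Summed members per group moved by less than 1 SD under both scalings. With 3 libraries a group, the 95% interval of S100a8 spans −0.56 to 0.44 on the log2 scale in the fit with group alone. The depth in reads is unknown.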
